A study of Mus musculus with 4 samples.

Results

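Histone H3.3 and the proteins that place it on chromatin were followed in mouse embryonic fibroblasts (MEFs) through 5 genes: H3f3a and H3f3b, which encode H3.3, and Hira, Daxx and Whsc1 (also named Nsd2). Members were all rows of the expression table that carry a transcript ID and overlap the mm9 interval of one of these genes. This gave 7 rows of 15883 with a transcript ID, and of 17576 rows in all. The study compared naive MEFs with MEFs pretreated with interferon-beta, a type I interferon, before stimulation and 1 h into interferon-beta (100 U/ml), with 1 library of polyA RNA in each of 4 groups. The 2 libraries taken after 1 h, naive and pretreated, were compared. All groups were C57BL/6 MEFs of the genotype H3.3-HA knock-in, in which a cDNA of H3.3 with an HA tag stands in place of H3f3b, and the comparison has no group without this allele. How many alleles carry the cDNA, how long the pretreatment lasted and whether cells rested after it are not given in the sources used here. The series title names RNA-seq, whereas each sample is described as scTSS-seq. The deposited values were handled as those of RNA-seq. If reads came from transcript starts, scaling by length would distort every fold and order of levels between genes given below. Length cancels in the ratio of a row between the libraries only if reads were divided among its transcripts alike in both, which was not tested. Transcript IDs were matched to symbols for 0 of 38980, so fibroblast markers and further genes of the pathway were not looked up.

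H3.3 is the histone H3 variant that cells can load onto DNA outside replication. HIRA is the chaperone that deposits H3.3 at transcribed genes and promoters, while DAXX works with ATRX in deposition at repeats and heterochromatin and is also known as a transcriptional corepressor. WHSC1 is a histone methyltransferase that modifies the tail of histone H3 and has been linked to HIRA-dependent deposition at interferon-stimulated genes.

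H3f3a and H3f3b encode the same protein from different codons. In the mouse reference (GENCODE M21, GRCm38) each has 411 coding bases over 3 coding exons, and the translations are identical over all 136 residues. The coding bases were 76.9% identical, with 95 differences spread over 83 codons, and the longest identical stretch was 23 bases. The first 150 coding bases, which encode the N-terminal tail, are shown because such differences are what tells reads of the pair apart. The H3f3a coding region lies on the minus strand at chr1:180803077-180811926 and that of H3f3b on the minus strand at chr11:116023407-116024009 (GRCm38). Sequences run 5′ to 3′, and capitals mark the 32 bases of this stretch at which the genes differ.
H3f3a: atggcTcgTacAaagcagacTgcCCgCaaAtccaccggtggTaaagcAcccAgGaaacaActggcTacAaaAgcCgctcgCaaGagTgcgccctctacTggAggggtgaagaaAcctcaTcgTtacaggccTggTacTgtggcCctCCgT
H3f3b: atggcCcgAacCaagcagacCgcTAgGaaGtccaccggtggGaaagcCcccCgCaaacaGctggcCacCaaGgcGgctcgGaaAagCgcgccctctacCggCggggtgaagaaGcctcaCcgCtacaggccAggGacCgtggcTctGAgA
Some intronless copies are closer to H3f3a than H3f3b is. H3f3c differs from its coding bases at 4 positions (99.0% identity, with an identical stretch of 267 bases), H3f3a-ps2 at 5 positions (98.8%, 155 bases) and H3f3a-ps1 at 8 positions (98.1%, 110 bases). The H3f3a level is therefore uncertain to the extent that reads were shared with these copies, which the table does not show. The codons of the tagged cDNA are not given in the sources used here, so its reads could have been counted at H3f3a, at H3f3b or at neither. GENCODE also lists an antisense gene, H3f3aos, that overlaps the start of H3f3a, and whether counting used strand is not stated.

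H3f3a was by far the more abundant H3.3 row in both libraries. Values are FPKM, fragments per kilobase of transcript scaled to the mapped total, so that levels of different genes are on a common scale if reads cover whole transcripts. The H3f3a row (XLOC_001359, 2 transcript IDs, mm9 chr1:182732699-182743734) measured 254 FPKM in naive cells and 146 FPKM in pretreated ones. Its naive level was above that of 97.7% of the rows with a transcript ID, and its pretreated level above that of 96.7%. The H3f3b row (XLOC_004810, 1 transcript ID, mm9 chr11:115880577-115886062) measured 26.7 FPKM in naive cells and 18.9 FPKM in pretreated ones. It spans 5486 bp against 4079 bp for H3f3b in RefSeq, so it may take in sequence beyond the gene. H3f3a thus stood 9.51-fold above H3f3b in naive and 7.74-fold above it in pretreated cells. The FPKM of both rows summed to 281 in naive and 165 in pretreated cells, and H3f3a held 90.5% and 88.6% of these sums. In all these cells a tagged cDNA stands in place of H3f3b, and its reads may be counted at either row or at neither. The folds, sums and shares therefore describe these rows only, not the H3.3 transcripts of MEFs without the allele.

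Both H3.3 rows were lower in the pretreated library. The naive value was 1.74 times the pretreated value at H3f3a and 1.41 times at H3f3b. On the scale of log2(FPKM + 1), the differences, pretreated minus naive, were -0.79 and -0.48. Each group consists of a single library, so neither a replicate error nor a test across cultures exists. The only error available is that of the authors' own comparison of reads, whose deposited p-values are the two-sided normal tail of the deposited test statistic. Dividing the fold change in the authors' deposited table by that statistic gives the standard error of its log2 ratio, which covers the 2 libraries and not the variation between cultures. For H3f3a the deposited log2 ratio was -0.80 with a standard error of 0.40 and a 95% interval from -1.58 to -0.01, and the deposited q-value was 0.169. For H3f3b it was -0.50 with a standard error of 0.33 and an interval from -1.14 to 0.14, and the deposited q-value was 0.311. Neither H3.3 row was called in the authors' deposited table.

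Daxx was the 1 gene of the 5 with a higher level in pretreated cells. Its row (XLOC_010793, 2 transcript IDs, mm9 chr17:34046390-34052535) stood at 14.7 FPKM in naive cells and at 26.1 FPKM in pretreated ones, a ratio of 1.78. The difference in log2(FPKM + 1) was 0.79. The log2 ratio in the authors' deposited table was 0.83, with a standard error of 0.36 and a 95% interval from 0.12 to 1.54. The deposited p-value was 0.0215, and the deposited q-value of 0.101 missed the authors' limit of 0.05. Daxx stood at 0.55 of the H3f3b level in naive cells and at 1.38 times that level in pretreated cells, so the order of these 2 rows differed between the libraries. Set against the summed H3.3 rows, Daxx came to 5.23% in naive and 15.8% in pretreated cells. Both comparisons describe rows only, since reads of the tagged cDNA may be counted at either H3.3 row or at neither.

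The span after Daxx carried a higher level in pretreated cells as well. It begins 585 bp beyond the Daxx row and holds 3 rows (mm9 chr17:34053121-34066235). In RefSeq the genes that follow Daxx are Zbtb22 and Tapbp, the latter encoding tapasin of the peptide-loading complex. Its most abundant row, XLOC_010795, measured 28.3 FPKM in naive cells and 72.0 FPKM in pretreated ones, and the authors' deposited table called it higher, with a log2 ratio of 1.35 and a q-value of 9.22e-08. Another row of the span, XLOC_011533, was listed at 0.359 and 2.40 FPKM and was also called, whereas the third, XLOC_010794, was listed at 0.310 and 0.140 FPKM and was not called. Whether reads of this span entered the Daxx row was not tested.

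Hira and Whsc1 each had 2 rows of the same span, on opposite strands, and the table does not say which row is the gene. Serial numbers of the rows gave a reading of the strand. Along 20 of 21 chromosomes, the rows in serial order fell into 3 runs of ascending positions. At 53 rows with a transcript ID the interval was exactly that of a GENCODE transcript at the same coordinates in GRCm38. Of these, 28 rows of the first run lay on plus-strand transcripts and 0 on minus-strand ones, while 24 rows of the second run lay on minus-strand transcripts and 1 on a plus-strand one. The third run held 1611 rows, of which 1588 had no transcript ID. The first run was therefore read as plus strand and the second as minus strand. By this reading, the single rows of H3f3a, H3f3b and Daxx lay on the strand that GENCODE gives each gene. Hira and Whsc1 are plus-strand genes, and the plus-strand rows were taken as theirs. The minus-strand rows may belong to the neighbours on that strand, Mrpl40 beside Hira and Nelfa beside Whsc1: the span of 98517 bp compares with 98292 bp for Hira and Mrpl40 together in RefSeq and 93560 bp for Hira alone, and the span of 115515 bp with 115626 bp for Whsc1 and Nelfa together and 77291 bp for Whsc1 alone. This assignment was made after the values were seen, and the division of reads within the shared spans is uncertain.

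The row taken as that of Hira lay near 1 FPKM in both libraries. This plus-strand row (XLOC_009661, 3 transcript IDs, mm9 chr16:18871986-18970502) measured 1.29 FPKM in naive cells and 0.955 FPKM in pretreated ones. These levels exceeded 45.2% and 42.2% of the rows with a transcript ID. The difference in log2(FPKM + 1) was -0.23. The authors' deposited table gave a log2 ratio of -0.44, a standard error of 0.36 with a 95% interval from -1.13 to 0.26, and a q-value of 0.441. The minus-strand row of the same span (XLOC_010024, 1 transcript ID) measured 23.7 FPKM in naive cells and 24.8 FPKM in pretreated ones, with a deposited log2 ratio of 0.07 and an interval from -0.66 to 0.80. It stood 18.4-fold above the Hira row in naive and 26.0-fold above it in pretreated cells, so a level summed over the span without regard to strand would be mostly that of the other row.

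Whsc1 was the 1 member that the authors called. Its plus-strand row (XLOC_019503, 6 transcript IDs, mm9 chr5:34163393-34278907) measured 1.54 FPKM in naive cells and 0.717 FPKM in pretreated ones, so the naive value was 2.15 times the pretreated one. The log2 ratio in the authors' deposited table was -1.10, with a standard error of 0.29 and a 95% interval from -1.67 to -0.54. This standard error was the smallest of the 7 rows, while H3f3a, at a far higher level, had the largest (0.40). How the authors' model set these errors is not given in the sources used here. The deposited p-value was 0.000118 and the deposited q-value 0.00265. Over the whole table, the authors called 11.9% of 13388 tested loci lower. On the scale of log2(FPKM + 1), which understates the change of low rows, the difference was -0.57. The minus-strand row of the span (XLOC_020256, 2 transcript IDs) measured 11.7 FPKM in naive cells and 13.1 FPKM in pretreated ones, with a deposited log2 ratio of 0.16 and an interval from -0.56 to 0.88. The rows of this span thus differed in sign, and that difference was not tested.

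**Figure D1:**
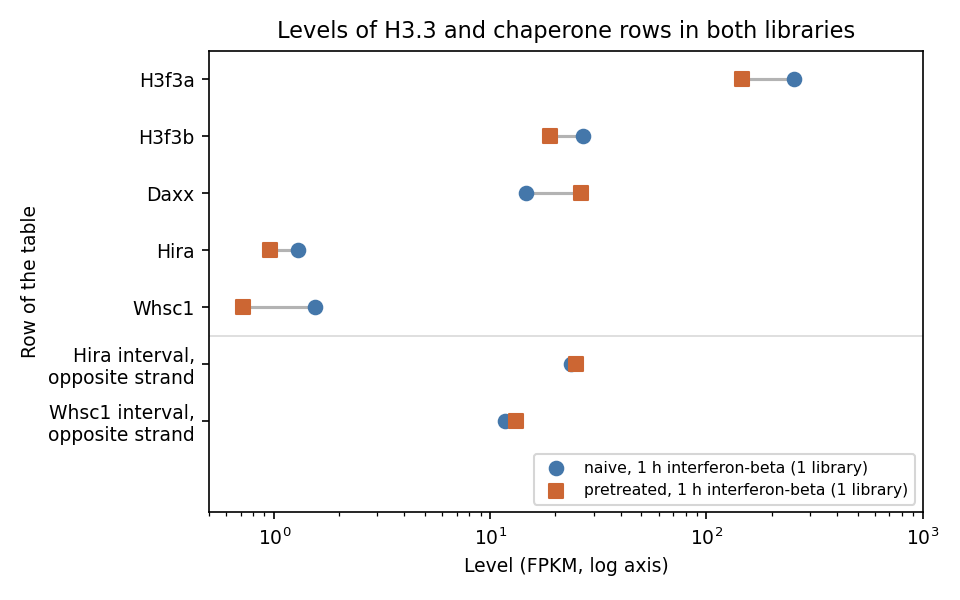
FPKM (log axis) of each of the 7 rows in the naive (circle) and the pretreated (square) library, 1 library each, with a line joining the pair; the strand of a row was read from its serial number. H3f3a lies near 254 and 146 FPKM, Hira and Whsc1 lie near 1 FPKM, and Daxx is the only one of the 5 genes whose pretreated symbol is to the right.

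The order of levels differed between the libraries at 2 places. Levels are those of rows, and reads of the tagged cDNA may be counted at either H3.3 row or at neither. In naive cells it ran from H3f3a (254 FPKM) through H3f3b (26.7), Daxx (14.7) and Whsc1 (1.54) to Hira (1.29). In pretreated cells it ran from H3f3a (146 FPKM) through Daxx (26.1), H3f3b (18.9) and Hira (0.955) to Whsc1 (0.717). Hira stood at 0.838 of the Whsc1 level in naive and at 1.33 times that level in pretreated cells. Daxx exceeded Hira 11.4-fold in naive and 27.4-fold in pretreated cells. No level has a spread over cultures, so the pairs that change places, H3f3b with Daxx and Hira with Whsc1, cannot be told to differ in order, while the other neighbours were several-fold apart in both libraries.

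**Figure D2:**
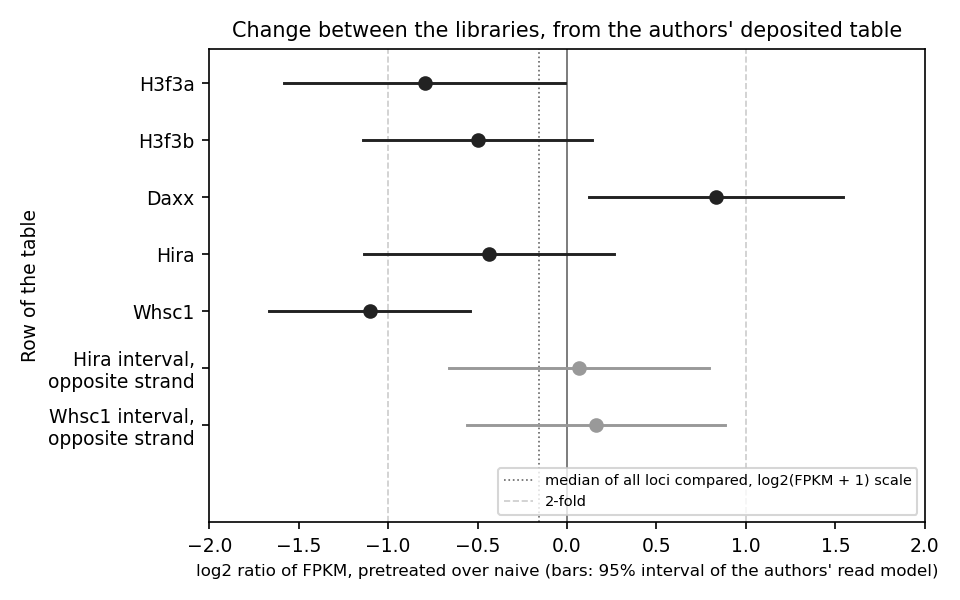
Points give the log2 ratio of FPKM, pretreated over naive, from the authors' deposited table, and bars its 95% interval from the deposited test statistic; black marks the rows on the gene's strand and grey those on the opposite strand. The interval of Daxx (0.12 to 1.54) lies above 0, those of Whsc1 (-1.67 to -0.54) and H3f3a (-1.58 to -0.01) lie below it, and the other 4 span it.

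Counted over the genes, 4 of 5 had a lower and 1 a higher value in the pretreated library, and 3 of the 5 intervals did not include 0, that of Daxx above it and those of H3f3a and Whsc1 below it. Of 11624 tested loci with a transcript ID and values above 0, the interval lay above 0 at 7.55% and below it at 19.3%. The median deposited log2 ratio of these loci was -0.18, and relative to it 2 of the 5 intervals did not include 0, since that of H3f3a then ran from -1.40 to 0.17. All 7 rows passed the filter of a mean of at least 1 FPKM. Hira (0.955 FPKM) and Whsc1 (0.717 FPKM) lay under 1 FPKM in the pretreated library and passed only through their higher naive values. On the log2(FPKM + 1) scale, 0 of 7 differed by 2-fold or more, while among all 10228 loci of that level 2.83% were higher and 7.12% lower by as much. Among the 9227 of them with a transcript ID, as all members have, the shares were 2.41% (222 loci) and 4.24% (391 loci), and after centring on their median 320 were higher and 259 lower, so that the larger side changed. Without a pseudocount, Whsc1 was past 2-fold. The authors called 1 of 7 lower, where 11.9% of 13388 tested loci were called lower, and 0 of 7 higher, where 3.91% were called higher. These tested loci were not restricted to those with a transcript ID. The median difference was -0.48 for the 5 genes and -0.23 for the 7 rows. It was -0.16 for all loci compared and -0.13 for those with a transcript ID, so lower values were the more common there as well. With so few members, these counts and medians do not set the genes apart from the rest of the table.

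Read against loci of like level on the log2(FPKM + 1) scale, Daxx lay farthest out. Loci with a transcript ID and a mean of at least 1 FPKM were divided into 10 classes of mean level. In the class of Daxx (922 loci), differences in log2(FPKM + 1) ran from -0.82 at the 10th to 0.43 at the 90th percentile, and 3.90% of loci were at or above the 0.79 of Daxx. H3f3b, in the same class, had 26.9% of loci below it. H3f3a fell in the class of highest level, where 13.7% of 923 loci lay below its difference of -0.79. Whsc1 and Hira fell in the class of lowest level, where 10.7% and 36.8% of 923 loci lay below them. The scale understates the change of low rows such as Whsc1, whose deposited log2 ratio was -1.10 against 0.83 for Daxx. All loci in the class of Whsc1 had means from 1.00 to 1.49 FPKM. Its place there thus compares rows whose changes are understated to a like extent. Places within the classes were not taken from the deposited ratios. These shares describe the 2 libraries and are not tests.

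**Figure D3:**
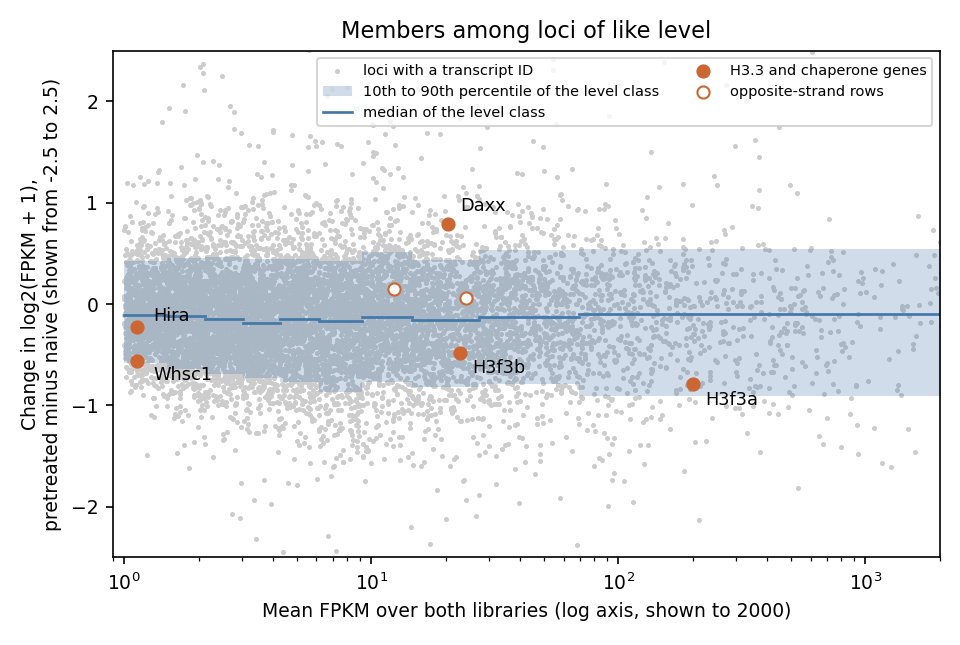
Difference in log2(FPKM + 1), pretreated minus naive, against mean FPKM (log axis) for loci with a transcript ID (grey), with the median (line) and the 10th to 90th percentile (band) of each of 10 level classes. On this scale Daxx, at 0.79, lies above its band, while H3f3a, H3f3b, Hira and Whsc1 lie within theirs. The scale understates the change of low rows, that of Whsc1 and those of its band alike.

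The rows whose pair of levels came nearest to that of H3f3a were XLOC_013983 (uc008jvc.1, mm9 chr2:61549751-61638433), with 250 FPKM in the naive and 140 FPKM in the pretreated library, and XLOC_005187 (uc007nyq.1 and uc007nyr.1, mm9 chr12:77866560-77884165), with 241 and 141 FPKM. Their distances to H3f3a, taken over both libraries on the log2(FPKM + 1) scale, were 0.07 and 0.09. With 2 libraries this likeness says only that level and difference were close.

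Promoter sequences from RefSeq (GRCm38.p6, 250 bases before to 50 after a start) were found for H3f3a, H3f3b, Hira and Daxx, 4 of the 5 genes, with 3 alternative starts for Daxx. They were searched on both strands for the core of the interferon-stimulated response element, GAAANNGAAA, and for the STAT-type element TTCNNNGAA. The first was found in 0 of these 6 windows and in 3.44% of 32851 promoters, and the second in 0 of 6 and in 8.30%. No match says only that these letters are not in these windows.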

How the data were processed

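Members and lists were chosen with earlier results of these data known. One table was used, with FPKM values for the naive and the pretreated library at 1 h, matched through the sample names written in each row; the 0 h libraries were not analysed here. The authors deposited FPKM per row with a log2 fold change, a test statistic, and p-values and q-values; per the submitters' processing notes TopHat and Cufflinks 1.2.1 were used with mm9, and the column names, per the file headers, are those of Cuffdiff. The annotation, options and scaling between libraries are not given in the sources used here, and the number of reads behind each value is unknown.

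Changes were differences of log2(FPKM + 1), on rows with a mean of at least 1 FPKM, without the 24 rows of status FAIL or HIDATA. Deposited starts were raised by 1: 53 rows then had exactly the interval of a GENCODE transcript, against 1 as deposited. The deposited p-values differed by at most 2.86e-06 from the normal tail of the statistic, and intervals are 1.96 standard errors. Named were all members and the 2 rows nearest to H3f3a. Python 3.11.15, pandas 2.3.3, numpy 2.4.6 and scipy 1.17.1 were used, and the functions were tested on simulated data. Pseudocount, centring, filter, fold threshold and row selection were varied.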

Additional observations from a re-analysis of the deposited data

How the results depend on the processing

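The direction of each of the 7 member rows was the same under all 5 settings of pseudocount and centring, with log2 differences from -0.80 to -0.63 for H3f3a, -0.50 to -0.32 for H3f3b, -0.44 to -0.07 for Hira, -1.10 to -0.41 for Whsc1 and 0.79 to 0.95 for Daxx. Whsc1 moved by more than its standard error, to -1.01 with a pseudocount of 0.1 and -1.10 without one, and 1 member row was then past 2-fold lower under either setting. At a 1.5-fold threshold 1 row was higher and 1 lower. Over all loci, higher and lower counts were 465 and 1175 with a pseudocount of 0.1, 481 and 1132 without one, 176 and 452 at a mean of 5 FPKM, 99 and 143 at 4-fold, and 766 and 2103 at 1.5-fold, against 289 and 728. Centring gave 423 and 527. With a transcript ID, 222 were higher and 391 lower, and 320 and 259 when also centred, a setting added after seeing the data, as were the restrictions to own-strand rows and to 300 bp or more. Requiring a row to lie wholly inside its interval left no member. No paired analysis was possible because the groups hold a single library each, and no replicate could be left out. Hira and Whsc1, near 1 FPKM, rest on the fewest reads per length of the 5 genes.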
